A study of Mus musculus with 6 samples.

Results

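TOP mRNAs are messages whose first transcribed base is a cytosine followed by an unbroken run of pyrimidines, the terminal oligopyrimidine tract. They encode the ribosomal proteins and a smaller set of translation factors, and their translation is switched on and off together by mTORC1, with the RNA-binding protein LARP1 holding the cap and the tract when mTORC1 is inactive. LARP1 and the poly(A)-binding protein also protect these mRNAs from decay, so their abundance and their translation can move separately, and RNA sequencing of whole cells reads abundance alone. The 10 genes described here are TOP mRNAs that do not encode ribosomal proteins. They were chosen by symbol, with earlier results of these data known, and all 10 were found among the 39234 genes of the deposited table and passed the filter on low counts.

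By role, 4 of them encode the eEF1 complex, in which EEF1A1 (eEF1A1) delivers aminoacyl-tRNA to the ribosome and EEF1B2, EEF1D and EEF1G form the eEF1B unit that recharges it with GTP. EEF2 moves the ribosome along the mRNA after each peptide bond. EIF3E, EIF3F and EIF3H encode subunits of eIF3, the scaffold that brings the small ribosomal subunit to the mRNA. TPT1 encodes translationally controlled tumour protein, a growth-related protein named for its translational control, and PABPC1 encodes the main cytoplasmic poly(A)-binding protein.

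RNA was taken from HK-2, a human proximal tubule cell line, in 3 control samples and 3 samples overexpressing USAG-1, a secreted antagonist of BMP and Wnt signalling encoded by SOSTDC1. The labels give a WT genotype to all 6 and do not say what the controls received. According to the study's methods, overexpression in cells was by transient transfection of a plasmid, and the identity of the line was not checked by STR profiling. The comparison is of USAG-1-overexpressing with control samples. Because the treatment of the controls is not given, effects of transfection and of USAG-1 cannot be told apart. The labels name mouse as the organism, but the gene identifiers are human.

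The libraries held 41236194 to 48699471 counts in control cells and 42782931 to 45448720 in USAG-1-overexpressing cells. SOSTDC1 had 60 to 80 counts in control libraries and 3907 to 5072 in the others. Control replicate 3 stood apart from its group, with a chi-square per degree of freedom of 42.3 and 42.7 against the other 2 controls, whereas all other pairs within a group lay between 6.52 and 8.35. Where leaving it out changes a result below, the value without it is given as well. Of all genes tested by edgeR, 15.9% were called with all 6 libraries and 27% without control replicate 3. Markers of T and NK cells were present at low levels in control cells, and 17 of 19 were lower in USAG-1-overexpressing cells, with a summed level of 131 to 152 CPM against 33.4 to 42.4 CPM. Of 4 markers of all leukocytes 3 were lower (57.2 to 70.05 against 19.0 to 25.8 CPM), of 6 myeloid markers 1 was lower (44.97 to 104 against 36.05 to 69.05 CPM), and of 4 B cell markers none (2.01 to 3.66 against 1.22 to 3.22 CPM). CD2, CD3D, CD8B and GZMA were at 0 counts in 1 USAG-1 library each, and GZMK in 1 library of each group. Mitochondrially encoded genes took 5.29 ± 0.426% of counts in control and 1.53 ± 0.0255% in USAG-1-overexpressing libraries (SD, n = 3). The part of these differences in the results below was not tested. In bulk RNA, fewer cells of a type and less RNA per cell cannot be told apart. Against the label of proximal tubule, the control samples held 375 ± 8.57 CPM of PAX8 and 105 ± 17.0 CPM of GGT1 (SD, n = 3), whereas the apical receptor gene LRP2 had 0 counts in every library, which allows up to 0.0728 CPM, and 7 of 18 epithelial markers stayed under 1 CPM throughout. Of the 12 epithelial markers tested, 3 were higher with USAG-1 overexpression and none lower, with a median log2 fold change of 0.22. Without control replicate 3, 7 were higher. Only 1 was higher without control replicate 2 or USAG-1 replicate 2, and none without USAG-1 replicate 1 or 3. The summed level of the epithelial markers was 2269 to 2751 CPM in control and 2668 to 2768 CPM in USAG-1-overexpressing libraries.

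The 10 mRNAs did not move as a group. PABPC1 and EEF2 rose, TPT1 and EEF1B2 fell, and the other 6 did not pass the test. These 4 of 10 compare with 15.9% of the 18188 genes tested (8.95% higher and 6.91% lower; edgeR's quasi-likelihood test, adjusted p under 0.05 over all genes). Of the 10 estimates 5 were positive and 5 negative, with a median log2 fold change of -0.02, and the median over all genes tested was also -0.02. Of the 10, 4 were higher and 2 lower without control replicate 3, with a median of 0.03, where 27% of all genes tested were called. In 7 of the 10 the control and USAG-1 libraries did not overlap, against 37.6% of all genes tested. Together the 10 genes took 1.40 ± 0.144% of the counts in control libraries and 1.38 ± 0.0202% in USAG-1-overexpressing ones (SD, n = 3), and the first of these means rests on control replicate 3. That library had 1.56%, and the other 2 controls, with 1.31% and 1.33%, lay below all USAG-1 libraries (1.37% to 1.40%). Without EEF1A1 the shares were 0.615 ± 0.0171% and 0.673 ± 0.00709%. All these are shares of total counts, of which mitochondrially encoded genes took 5.29% in control and 1.53% in USAG-1-overexpressing libraries (means). A smaller mitochondrial share raises the share of every other gene, and shares without those genes were not computed. Levels are given as CPM, counts scaled to library size with TMM factors, and because transcript lengths were not used they are compared between libraries and not between genes.

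**Figure D1:**
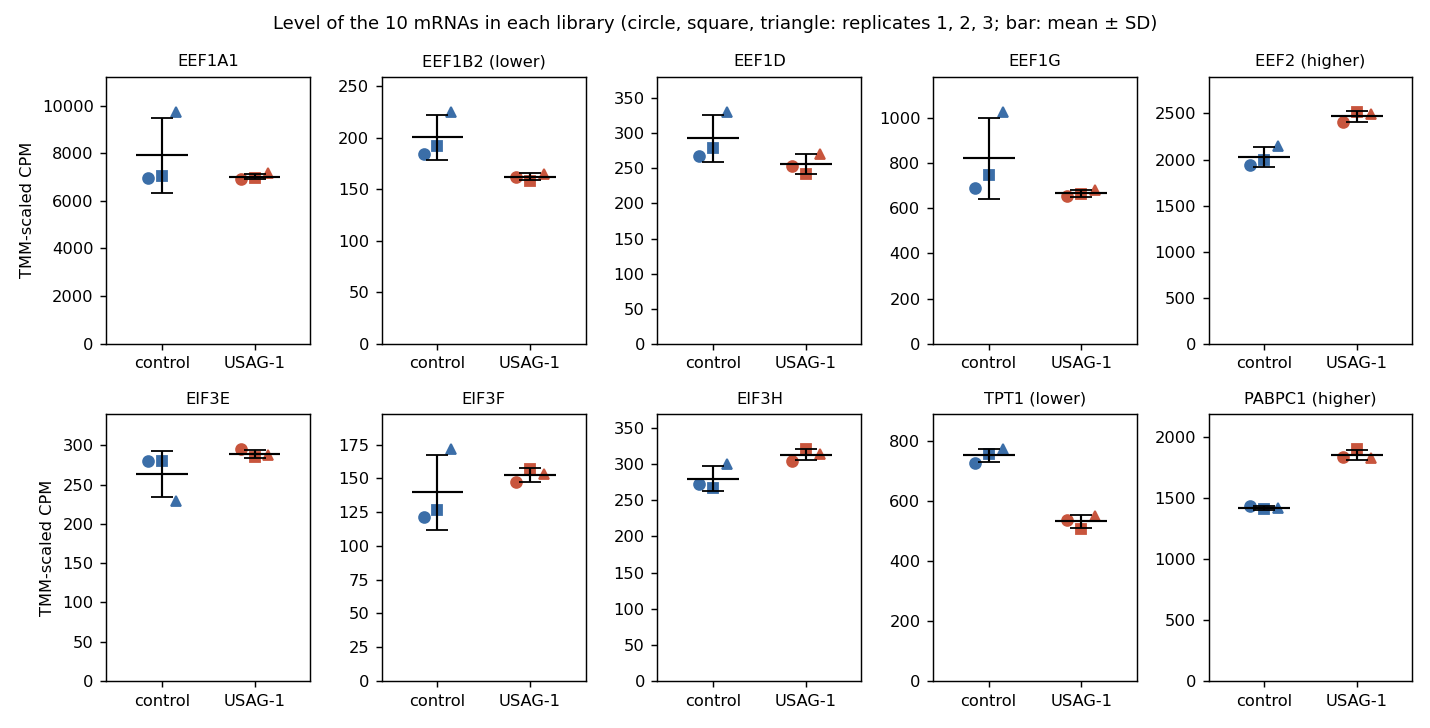
Level of each of the 10 mRNAs (vertical axes, TMM-scaled CPM, each starting at 0) in 3 control and 3 USAG-1-overexpressing libraries, with replicates 1, 2 and 3 as circle, square and triangle and the mean ± SD as black bars. PABPC1 and EEF2 sit higher and TPT1 and EEF1B2 lower in all 3 USAG-1 libraries, while the control triangle, replicate 3, is far above its group for EEF1A1, EEF1G and EIF3F and below it for EIF3E.

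PABPC1 (ENSG00000070756; chromosome 8, 100685816 to 100722762) showed the largest rise of the 10. It had 1434, 1403 and 1416 CPM in the control libraries and 1832, 1896 and 1825 CPM with USAG-1 overexpression. The lowest USAG-1 library was well above the highest control, and control replicate 3 lay between the other controls. The means were 1418 ± 15.7 and 1851 ± 39.3 CPM (SD, n = 3), a log2 fold change of 0.38 (standard error 0.05, 95% interval 0.28 to 0.49, adjusted p = 0.00169 by edgeR), or 30.6% more. PABPC1 binds the poly(A) tail and eIF4G and so bridges the ends of an mRNA, and its own message is translationally repressed by the protein. It stayed higher in all 15 alternatives, with estimates of 0.37 to 0.40.

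EEF2 (ENSG00000167658; chromosome 19, 3976056 to 3985463) also rose. The control libraries had 1939, 1992 and 2150.3 CPM and the USAG-1 libraries 2405, 2517 and 2489.8 CPM. All 3 USAG-1 libraries were above all controls, with control replicate 3 nearest to them. The log2 fold change was 0.29 (standard error 0.05, 95% interval 0.16 to 0.41, adjusted p = 0.0114 by edgeR), from 2027 ± 109.9 to 2471 ± 58.8 CPM (SD, n = 3), a rise of 21.9%. The direction held in all 15 alternatives, but the call was lost without control replicate 2 (0.27, adjusted p = 0.0553 by edgeR) or USAG-1 replicate 2 (0.27, adjusted p = 0.0622) or 3 (0.28, adjusted p = 0.0602). EEF2K, the kinase that inactivates eEF2, had 44.5 ± 2.07 CPM in control and 43.9 ± 1.91 CPM in USAG-1-overexpressing libraries (SD, n = 3) and did not pass the test.

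TPT1 (ENSG00000133112; chromosome 13, 45333471 to 45341284) changed most of the 10, and downwards. It had 727, 754 and 771 CPM in control libraries and 537, 507 and 550.1 CPM in USAG-1-overexpressing ones. The groups were clearly apart, the highest USAG-1 library being below the lowest control. The means of 751 ± 22.4 and 531 ± 21.8 CPM (SD, n = 3) gave a log2 fold change of -0.50 (standard error 0.05, 95% interval -0.62 to -0.37, adjusted p = 0.00123 by edgeR), so that its level decreased by 29.2%. In all 15 alternatives TPT1 was called lower, with estimates of -0.52 to -0.46.

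EEF1B2 (ENSG00000114942; chromosome 2, 206159585 to 206162928), the eEF1B subunit with nucleotide exchange activity on eEF1A, fell as well. Its levels were 184, 192 and 225 CPM in control cells and 162, 158 and 165 CPM with USAG-1 overexpression. The groups did not overlap, but the gap between the lowest control and the highest USAG-1 library was smaller than the spread among the controls. The log2 fold change was -0.31 (standard error 0.08, 95% interval -0.49 to -0.12, adjusted p = 0.0363 by edgeR). Without control replicate 3, its highest library, it was -0.21 (adjusted p = 0.00456 by edgeR). The call was lost in 5 of 15 alternatives, namely with no filter on low counts (adjusted p = 0.0714 by edgeR) and without control replicate 2 (0.0711) or USAG-1 replicate 1 (0.124), 2 (0.146) or 3 (0.111), with estimates of -0.34 to -0.29.

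**Figure D2:**
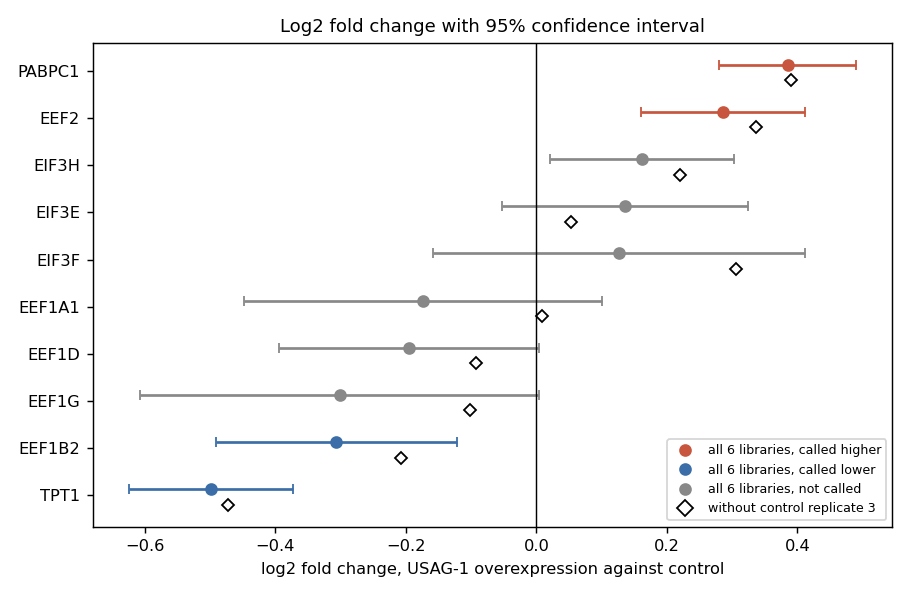
Log2 fold change of each mRNA (horizontal axis) in USAG-1-overexpressing against control HK-2 cells, with filled circles and 95% confidence intervals from all 6 libraries and open diamonds from the fit without control replicate 3. PABPC1 and TPT1 hardly move between the fits (0.38 and 0.39; -0.50 and -0.47), whereas EEF1A1 crosses 0 and EIF3F goes from 0.13 to 0.31.

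The other 3 genes of the eEF1 complex had negative estimates that did not pass the test. EEF1A1 (ENSG00000156508; chromosome 6, 73489308 to 73525587) had 6984, 7044 and 9747 CPM in control libraries and 6942, 6977 and 7159.6 CPM in USAG-1-overexpressing ones. Control replicate 3 alone was high, and the other 2 controls lay within the range of the USAG-1 libraries. The log2 fold change of -0.17 (standard error 0.12, 95% interval -0.45 to 0.10, adjusted p = 0.376 by edgeR) became 0.01 (standard error 0.02, adjusted p = 0.811 by edgeR) without that library, which turns its sign. EEF1A1 alone took 0.784 ± 0.128% of the counts in control and 0.706 ± 0.0142% in USAG-1-overexpressing libraries (SD, n = 3).

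EEF1G (ENSG00000254772; chromosome 11, 62559596 to 62574086), the subunit that anchors the eEF1B unit, had 691, 748 and 1029 CPM in control and 654, 665 and 684 CPM in USAG-1-overexpressing libraries. The groups were apart by a narrow margin, and control replicate 3 was again the high library. Its log2 fold change was -0.30 (standard error 0.13, 95% interval -0.61 to 0.00446, adjusted p = 0.17 by edgeR), and -0.10 without control replicate 3. EEF1D (ENSG00000104529; chromosome 8, 143579697 to 143597679), the second exchange factor of the unit, had 268, 279.6 and 331 CPM against 254, 243 and 271 CPM. These groups overlapped, since the highest USAG-1 library exceeded the lowest control. The log2 fold change was -0.19 (standard error 0.09, 95% interval -0.39 to 0.00456, adjusted p = 0.173 by edgeR), and -0.09 without control replicate 3. All 4 genes of the complex were highest in control replicate 3, by 0.26 to 0.52 on the log2 scale over the mean of the other 2 controls.

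EEF1A1 and EEF1G have partners that can share reads, and how such reads were counted is not given in the sources used here. The table lists 24 pseudogenes named after EEF1A1, which together took 13.9% to 16.2% of the counts of gene and copies per library, and EEF1A1P5 held most of them. EEF1A1P5 was likewise highest in control replicate 3, at 937, 969 and 1574 CPM in control and 954, 1101 and 1036 CPM in USAG-1-overexpressing libraries. For EEF1B2 the share of copies was 3.68% to 4.95%, for EIF3F 1.82% to 3.06%, and for the other genes it was at most 0.214%. Adding the copies' counts to their parent changed no call among the 10. EEF1G overlaps ENSG00000255508 on the same strand, with 10.4% as many counts, and EEF1D overlaps ENSG00000279605 on the other strand, with 13.1% as many; neither partner passed the test (adjusted p = 0.289 and 0.458, edgeR).

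The 3 eIF3 genes had positive estimates, and none passed the test. EIF3H (ENSG00000147677; chromosome 8, 116642130 to 116766255) had 273, 268 and 299.98 CPM in control and 305, 321 and 314 CPM in USAG-1-overexpressing libraries. Its groups did not overlap, but control replicate 3 came within reach of the lowest USAG-1 library. The log2 fold change was 0.16 (standard error 0.06, 95% interval 0.02 to 0.30, adjusted p = 0.116 by edgeR). EIF3H was called higher without control replicate 3 (0.22, adjusted p = 0.00196 by edgeR) and with library sizes alone as the scaling (0.18, adjusted p = 0.0382 by edgeR).

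EIF3F (ENSG00000175390; chromosome 11, 7970251 to 8001862) had 121, 127 and 172 CPM in control and 147, 157 and 153 CPM in USAG-1-overexpressing libraries. Control replicate 3 was the highest of all 6, above the USAG-1 libraries, while the other 2 controls were the lowest. The log2 fold change was 0.13 (standard error 0.12, 95% interval -0.16 to 0.41, adjusted p = 0.545 by edgeR), and 0.31 (standard error 0.04, adjusted p = 0.00112 by edgeR) without that library. EIF3E (ENSG00000104408; chromosome 8, 108162787 to 108443496) behaved in the opposite way in this library. It had 281, 279.8 and 229.8 CPM in control and 295, 285 and 288 CPM in USAG-1-overexpressing libraries, a log2 fold change of 0.14 (standard error 0.08, 95% interval -0.05 to 0.32, adjusted p = 0.309 by edgeR) and of 0.05 (adjusted p = 0.271) without control replicate 3.

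Of the 11 other eIF3 subunit genes, 2 passed the test (18.2%, against 15.9% of all genes tested), both higher. The median log2 fold change was 0.11, with 8 positive estimates. The 2 called were EIF3C (0.26, standard error 0.07, adjusted p = 0.0333, edgeR) and EIF3CL (0.27, standard error 0.07, adjusted p = 0.0305, edgeR), near-identical copies whose reads cannot be assigned with certainty. Without control replicate 3 the median was 0.21 and 6 of the 11 were higher, EIF3I most (0.47, adjusted p = 7.38e-05, edgeR). In that fit 27% of all genes tested were called. Without any one of the other 5 libraries none of the 11 was called. In control replicate 3, eIF3 subunits departed from the other libraries in both directions. Of all 14 eIF3 genes, 6 were at their highest there (EIF3B, EIF3D, EIF3F, EIF3I, EIF3K and EIF3L) and 4 at their lowest (EIF3A, EIF3E, EIF3J and EIF3M).

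**Figure D3:**
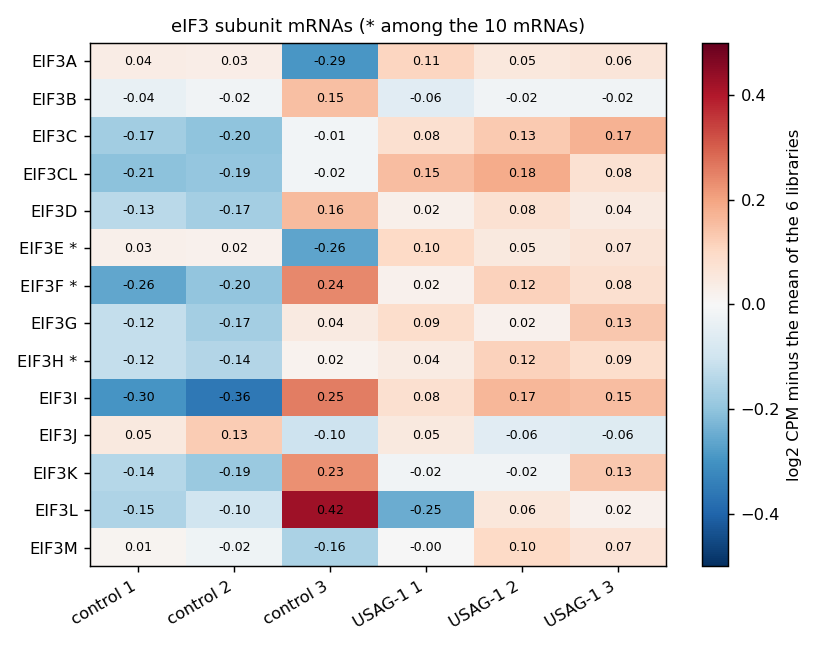
Level of 14 eIF3 subunit mRNAs in each library, as log2 CPM minus the mean of the 6 libraries (colour and printed value), with the 3 that are among the 10 mRNAs marked by an asterisk. Control replicate 3 is red for EIF3F (0.24), EIF3I (0.25) and EIF3L (0.42) and blue for EIF3A (-0.29) and EIF3E (-0.26).

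The ratio of the counts of 2 genes within a library does not depend on the scaling. These pairs were chosen after the values were seen and were not tested. PABPC1 had 1.97, 1.86 and 1.84 counts per count of TPT1 in control libraries and 3.41, 3.74 and 3.32 in USAG-1-overexpressing ones, a 1.85-fold higher ratio in which control replicate 3 did not stand out. For EEF2 over EEF1A1, the factors of translocation and of tRNA delivery, the ratios were 0.278, 0.283 and 0.221 against 0.346, 0.361 and 0.348. Within the eEF1B unit, the ratio of EEF1D to EEF1B2 was 1.46, 1.46 and 1.47 in control libraries and 1.57, 1.53 and 1.64 in USAG-1-overexpressing ones. It was 1.08-fold higher, and the groups did not overlap. That of EEF1G to EEF1B2 overlapped between groups (3.76, 3.91 and 4.57 against 4.03, 4.20 and 4.14). TPT1 to EEF1B2, the 2 genes that fell, went from 3.95, 3.94 and 3.43 to 3.31, 3.21 and 3.33.

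**Figure D4:**
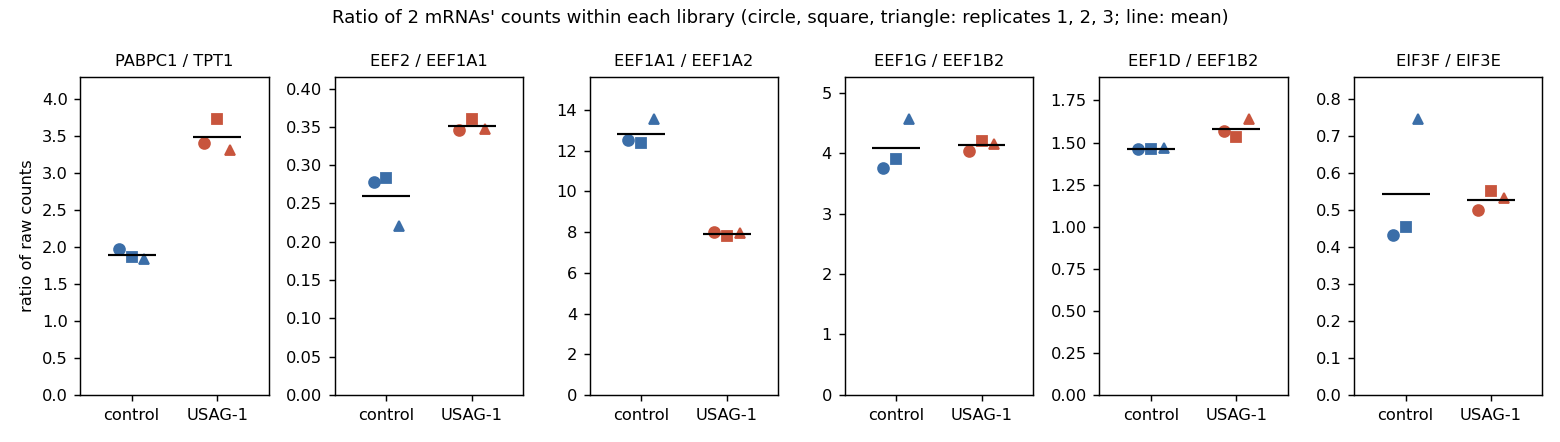
Ratio of raw counts between 2 genes in the same library (vertical axes, starting at 0), with replicates 1, 2 and 3 as circle, square and triangle and a line at the mean. PABPC1 to TPT1 is 3.32 to 3.74 in the USAG-1 libraries against 1.84 to 1.97 in control, EEF1A1 to EEF1A2 is 7.81 to 7.99 against 12.4 to 13.6, and EIF3F to EIF3E is high in control replicate 3 (0.746).

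EEF1A2, the second gene for eEF1A, known for its expression in muscle and neurons, moved apart from EEF1A1. It had 558, 569 and 718 CPM in control and 869, 893 and 899 CPM in USAG-1-overexpressing libraries, with no overlap. The rise was 0.53 in log2 units, with a standard error of 0.10 (adjusted p = 0.00871 by edgeR), and 0.66 without control replicate 3. EEF1A1 had 12.5, 12.4 and 13.6 counts per count of EEF1A2 in control libraries and 7.99, 7.81 and 7.96 in USAG-1-overexpressing ones. EEF1A2 was 1 of 22 other genes of cytosolic elongation and release, of which 1 further gene passed the test, DPH7 (-0.33, standard error 0.09, adjusted p = 0.0391, edgeR), an enzyme of the diphthamide modification of eEF2. With 1 library left out, 1 to 4 genes of this list were called higher and 0 to 2 lower, while 5.98% to 27% of all genes tested were called. With all libraries 9.09% of this list was called, against 15.9% of all genes tested, and its median was -0.03.

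Other TOP mRNAs outside the ribosomal proteins were called in both directions. Of 14 such genes, 2 were higher and 3 lower (35.7% called, against 15.9% of all genes tested), with a median log2 fold change of 0.01. COX7C, a subunit of cytochrome c oxidase, was lower (-0.35, standard error 0.06, adjusted p = 0.00986, edgeR), as were PFDN5, a prefoldin subunit (-0.55, standard error 0.13, adjusted p = 0.0275), and EIF4A2, a paralog of the helicase eIF4A1 (-0.42, standard error 0.12, adjusted p = 0.0464). The higher ones were PABPC4, a paralog of PABPC1 (0.20, standard error 0.05, adjusted p = 0.0346, edgeR), and NPM1, a nucleolar chaperone (0.18, standard error 0.05, adjusted p = 0.0449). RACK1, a component of the small ribosomal subunit, had 739, 743 and 1158 CPM in control and 742, 843 and 832 CPM in USAG-1-overexpressing libraries. It did not pass the test, and its estimate of -0.13 turned to 0.13 without control replicate 3. Calls without control replicate 3 were 4 higher and 3 lower, with a median of 0.06, where 27% of all genes tested were called. Without any one of the other libraries, none of the 14 was called higher and 0 to 2 were called lower.

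The ribosomal protein mRNAs were called in 1 direction. Of 79 genes 29 were lower (36.7%, against 6.91% of all genes tested) and none higher. In all, 76 estimates were negative, and the median log2 fold change was -0.28, where the 4 eEF1 complex genes had a median of -0.25. These medians without control replicate 3 were -0.20 and -0.10. In control replicate 3, 70 of the 79 were above the mean of the other 2 controls, as were the eEF1 complex genes. The median difference over all 79 was 0.28. Without control replicate 3, 46 were lower and 1 higher, and without USAG-1 replicate 2 only 2 were lower. In these 2 fits 27% and 5.98% of all genes tested were called. RPS7 (-0.46, standard error 0.06, adjusted p = 0.00296, edgeR) and RPS15A (-0.47, standard error 0.07, adjusted p = 0.00463) had the smallest p. PABPC1 and EEF2, called higher, thus lay outside the whole range of the 79 estimates, which ran from -0.59 to 0.09. So did EIF3E (0.14), EIF3F (0.13) and EIF3H (0.16), which were not called. These differences in direction were not tested.

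**Figure D5:**
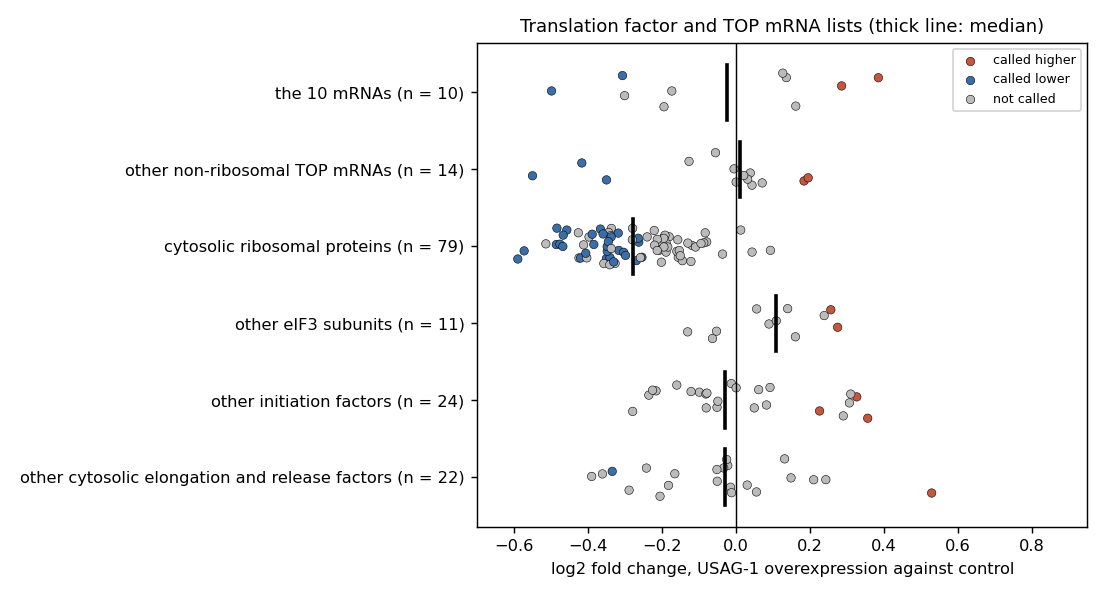
Log2 fold change (horizontal axis) of each tested gene in 6 lists, with genes called higher in red, lower in blue and not called in grey, and a thick line at each median. The 10 mRNAs and the other non-ribosomal TOP mRNAs spread to both sides of 0, with medians of -0.02 and 0.01, while the ribosomal protein mRNAs lie to the left, with a median of -0.28.

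Among 24 other initiation factors 3 were called (12.5%, against 15.9% of all genes tested), all higher, with a median of -0.03. EIF4A2, called lower, is not among these 24, since it was counted with the other TOP mRNAs. In the fit without control replicate 3, 7 were higher and 2 lower, with a median of 0.03, and without USAG-1 replicate 1 only 1 was higher. In these 2 fits 27% and 6.92% of all genes tested were called. EIF2S2, the beta subunit of eIF2 (0.36, standard error 0.06, adjusted p = 0.00516, edgeR), and EIF2A (0.33, standard error 0.06, adjusted p = 0.0091) had the smallest p, and the third was EIF4G1, the scaffold that PABPC1 binds (0.23, standard error 0.05, adjusted p = 0.0186). Of 20 regulators of TOP mRNAs and mTORC1 that were tested, 2 were higher (10%, also under the share of all genes) and none lower, with a median of 0.07. Without control replicate 3, 4 were higher and 1 lower, with a median of 0.04, where 27% of all genes tested were called. Without any one of the other libraries none of the 20 was called. The 2 were AKT1S1, an inhibitory subunit of mTORC1 (0.37, standard error 0.09, adjusted p = 0.0296, edgeR), and MTOR, its kinase (0.24, standard error 0.06, adjusted p = 0.0348). LARP1 had 383 ± 5.07 CPM in control and 429 ± 9.79 CPM in USAG-1-overexpressing cells (SD, n = 3), a difference of 0.16 log2 units with a standard error of 0.05 (adjusted p = 0.0575, edgeR), and was called higher without control replicate 3 (0.17, adjusted p = 0.0042). Whether any of these mRNAs was translated more or less was not measured.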

How the data were processed

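HK-2 libraries were poly(A)-selected and strand-specific, per the labels, which elsewhere name rRNA removal. The submitters' processing notes name cutadapt 1.9, FastQC and the build hg38; the aligner, counting tool and annotation are not given in the sources used here. The authors deposited whole-number counts per gene with hg38-style positions; they are not normalized, although the table's name speaks of FPKM. No column was left without a sample. Groups and replicate numbers come from the labels, and separate cultures are not otherwise documented, so p-values measure the spread between these samples, which may be technical.

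Low counts were removed (filterByExpr), TMM factors computed and edgeR 4.0.16's quasi-likelihood test (R 4.3.3) fitted without a block, with Benjamini-Hochberg adjustment over 18188 genes and calls at an adjusted p under 0.05, as the study's methods set for DESeq2. Standard errors are the log2 fold change over the square root of F. The 15 alternatives were DESeq2 1.42.0, limma 3.58.1 (voom), a replicate block, other scalings and filters, mitochondrial genes left out, pseudogene counts added and each library left out. In simulated data edgeR called 27.8% of genes changed by 0.5 log2 units and 61.9% of those changed by 1. Of its calls 10.3% were false, against 26% for DESeq2 and 5.62% for limma-voom. The simulation changed 97 of 17745 genes by each amount, whereas 15.9% were called in the data, so its recovery may not hold for the 10 members. A gene that did not pass the test may still have changed. For uncalled members the confidence intervals limit the size. Those of EIF3H (0.02 to 0.30) and EIF3E (-0.05 to 0.32) exclude the estimates of TPT1 (-0.50) and PABPC1 (0.38). That of EEF1G (-0.61 to 0.00446) includes the former and that of EIF3F (-0.16 to 0.41) the latter. Named genes are the 10 members, SOSTDC1, the 2 of each list with the smallest p (marker lists are given by counts) and the 5 most like the members, of which 1 is not reported here; others were chosen after their values were seen. The members and lists were chosen with earlier results of these data known. The planned search for the pyrimidine start was not run, and no sequence is given, because no human sequence was used here.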

Additional observations from a re-analysis of the deposited data

How the results depend on the processing

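Across 15 alternatives, the 10 genes gave 150 estimates, of which 138 kept their direction and side of the threshold, 8 lost a call (EEF1B2 in 5, EEF2 in 3), 3 gained one (EIF3H in 2, EIF3F in 1) and 1 changed sign, EEF1A1 without control replicate 3 (range without 1 library -0.256 to 0.00902). With a library left out, members called higher ranged from 1 to 4 and lower from 1 to 2, genes called higher from 630 to 2985 and lower from 507 to 2106. The lowest counts came without USAG-1 replicate 2 and the highest without control replicate 3. With no filter on low counts 1 member was called lower. The median over the 10 genes was -0.02 and moved by less than the spread between replicates (0.133) in each alternative. That spread is widened by control replicate 3, so staying within it does not show that the median is stable. The median ran from -0.11 without control replicate 1 to 0.03 without control replicate 3. DESeq2's Wald test called 3761 genes and the fit without the filter 2034, against 2884. With other scalings the median of all genes lay between -0.0237 and -0.0038, against -0.0192. The labels number replicates 1 to 3 in both groups, but same-numbered libraries did not deviate together (correlations of 0.07, -0.05 and 0.04); with a replicate block 2381 genes were called, and 2 members were higher and 2 lower.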

Other observations

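Of 11 tested poly(A)-binding proteins and partners other than PABPC1, 1 was higher (9.09%, against 15.9% of all genes called) and none lower. PABPC4, called higher, is not among these 11, since it was counted with the other TOP mRNAs. Their median log2 fold change was 0.11. TOB1, an antiproliferative protein that binds PABPC1, was higher (0.44, adjusted p = 0.0382, edgeR), and its paralog TOB2 did not pass the test (0.22, adjusted p = 0.0762). Without control replicate 3, 2 were higher and 2 lower, where 27% of all genes tested were called. Without any one of the other libraries none of the 11 was called. The 5 mitochondrial elongation factors included no called gene (edgeR; 3 had an unadjusted p under 0.05, and DESeq2 and limma-voom also called 0), but 2 were called higher without control replicate 3. The smallest p belonged to GUF1 (0.21, adjusted p = 0.0763) and TSFM (-0.43, adjusted p = 0.125).

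Among 3871 genes with a mean of at least 50 CPM, genes whose centred log2 CPM over the 6 libraries lay nearest to the mean of the 10 mRNAs included DDX19A, EXT2, EXOSC2 and ERGIC1, with root mean square differences of 0.0134 to 0.0178, and none of these passed the test (edgeR). That mean was highest in control replicate 3, at 0.152, and lay between -0.0699 and 0.00708 in the other libraries. Likeness to it therefore includes being high in that library.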
